A study of Mus musculus with 38 samples.

Results

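The 38 genes described here are interferon-stimulated antiviral and chemokine genes of mouse CD4 T cells. They were taken by symbol from the 23700 entries of each deposited RNA table, and each of the 38 symbols was found at 1 locus. They comprise 4 sensors of foreign nucleic acid, 11 effectors that act on RNA or translation, 6 that act on virus entry, replication or release, 7 genes of ISG15, ubiquitin and ADP-ribose transfer, 5 adaptor, nuclear body and apoptosis factors, 3 of less defined function and 2 chemokines. Levels are in FPKM, fragments scaled to transcript length and library size. Tests covered the 11121 genes that reached 1 FPKM in at least 2 of the 14 libraries. Of the 38 genes 36 passed, while Oasl1 (0.0876 to 1.78 FPKM) and the chemokine gene Cxcl9 (0 to 0.292 FPKM) did not.

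Interferons signal through JAK kinases. Type I interferons act through a complex with STAT2 and IRF9 on the interferon-stimulated response element, and interferon-gamma acts through the gamma-activated site. The products of the induced genes recognise viral RNA, block translation, cleave RNA, hold virions at the membrane and attract cells that carry the receptor CXCR3. Among T helper cells, Th1 cells develop under IL-12 through STAT4 and T-bet and secrete interferon-gamma, and Th2 cells develop under IL-4 through STAT6 and GATA3.

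Naive CD4+ T cells were sorted from spleen and lymph nodes of C57BL/6J mice that were wild type (WT) or carried STAT4<tm1>, Stat6<tm1> or Tbet<tm1>, called STAT4 KO, STAT6 KO and T-bet KO below. The no-vector cultures were polarised for 7 days and restimulated for 2 h on plate-bound CD3 and CD28 antibody, with IL-12 for Th1 cells (WT, 2 libraries; STAT4 KO and T-bet KO, 1 each) and IL-4 for Th2 cells (WT and STAT6 KO, 1 each). The vector cultures, labelled as 5 days, received a retrovirus with a truncated human NGFR marker alone (control vector) or with T-bet (WT and STAT4 KO Th1 cells) or GATA3 (WT and STAT6 KO Th2 cells), 1 library each. The Th1 vector cultures had anti-IL-4 and the Th2 vector cultures anti-IFNG; a second label gives the former 7 days and the same restimulation, and whether the latter were restimulated is not stated. Vector and no-vector cultures thus differ in transduction, time and antibodies together, and in Th2 cells possibly in restimulation, which cannot be told apart. Of the 13 RNA groups 12 hold 1 library. Nothing in the labels ties a library to a culture or mouse of its own, and p-values therefore speak only of the spread among these libraries, which can be technical. In bulk RNA, fewer cells of a type and less RNA per cell cannot be told apart.

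Each library had 9683 to 10265 genes at 1 FPKM or more. WT Th1 replicate 2 and T-bet KO resembled each other (r = 0.976 across genes, which are not replicates) and stood apart from the other 12 libraries (0.676 to 0.801, against 0.856 to 0.990 among the 12). The fits below use the 12, and values with these libraries are given where they change a call. Stat4 was lower in the STAT4 KO than in the WT library of each culture (17.5 against 60.8, 7.57 against 41.0 and 6.71 against 37.1 FPKM), and Tbx21 was 4.18 FPKM in T-bet KO. Stat6 was 34.6 FPKM in STAT6 KO and 35.6 in WT without a vector, 36.1 and 65.9 with the control vector and 23.3 and 48.0 with the GATA3 vector, so its summed level did not check the no-vector label; Il4 was 20.5 against 513 FPKM and Tbx21 43.7 against 3.61 in the no-vector pair. All 8 T cell markers were above 1 FPKM in every library, Cd8a was at most 0.210 and Cd8b1 1.80 to 5.65 FPKM (the highest in no-vector WT Th2), the 5 NK cell markers summed to at most 0.581 and the 5 B cell markers to at most 1.46 FPKM.

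WT Th2 cells held both the highest and the lowest levels of these genes. Among the 12 libraries, no-vector WT Th2 was the highest for 22 of the 36 genes tested, where it was the highest for 11.1% of all genes tested. WT Th2 with the control vector was the lowest for 20 and WT Th2 with the GATA3 vector for 10, against 5.31% and 7.08% of all genes. The median of the 36 genes was 22.1 FPKM in no-vector WT Th2, 3.02 with the control vector and 4.58 with the GATA3 vector. The 3 STAT6 KO Th2 libraries lay between, with medians of 10.9, 12.6 and 14.2 FPKM, and the 6 Th1 libraries ranged from 5.89 (STAT4 KO with the T-bet vector) to 15.2 FPKM (WT without a vector).

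**Figure D1:**
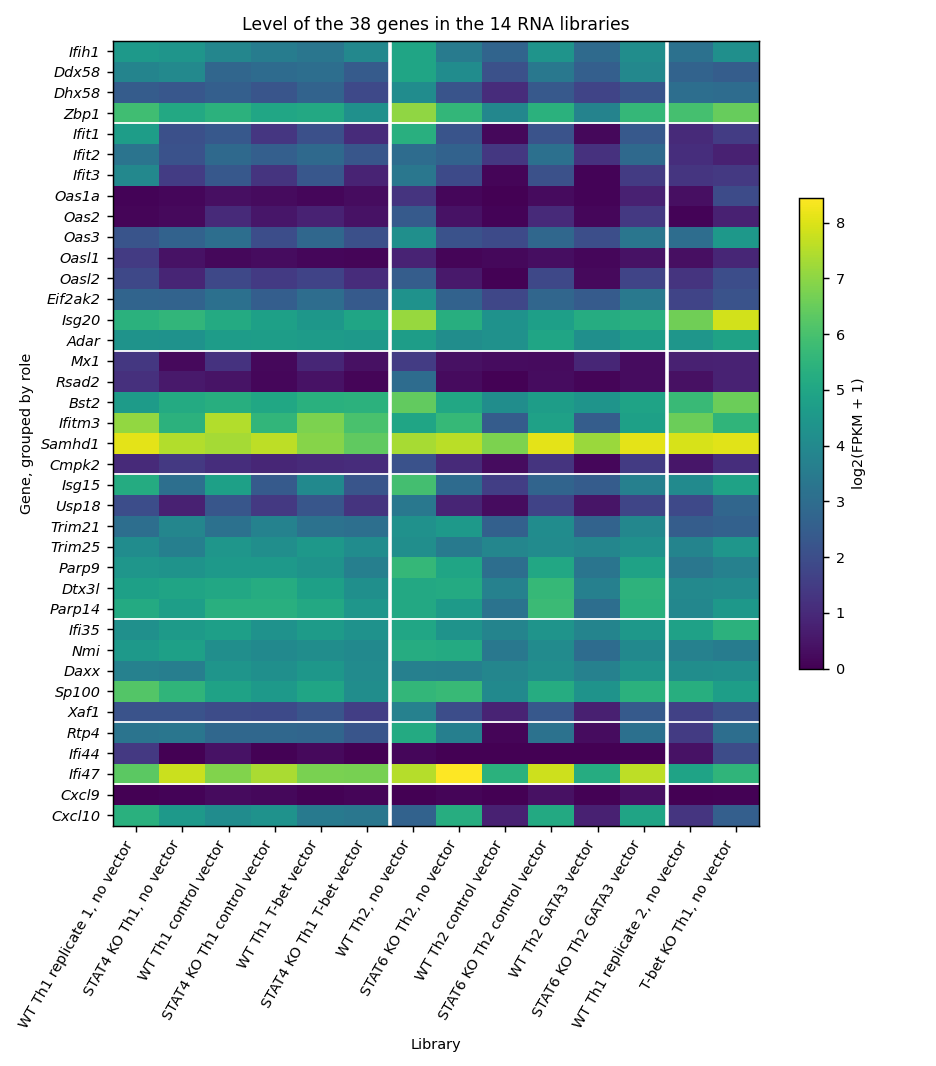
Level of the 38 genes (rows, grouped by role) in the 14 RNA libraries (columns), as log2(FPKM + 1) by colour; white lines part Th1, Th2 and the 2 libraries that stood apart. The no-vector WT Th2 column is bright for many genes, and the WT Th2 columns with a vector are the darkest, with medians of 3.02 and 4.58 FPKM.

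STAT6 KO and WT Th2 cells differed in opposite directions in the no-vector and the vector cultures. On the log2(FPKM + 1) scale, on which a change of 1 is 2-fold and changes of low genes are understated, STAT6 KO minus WT had a median over the 36 genes of -1.12 without a vector, 1.27 with the control vector and 1.25 with the GATA3 vector. The corresponding medians of all genes were 0.04, 0.00 and 0.07. Without a vector, 19 of the 36 genes were at least 2-fold lower in STAT6 KO, against 5.35% of all genes. In both vector cultures 19 were at least 2-fold higher, against 1.89%. Over the 4 vector libraries, both STAT6 KO levels were above both WT levels for 34 of the 36 genes, against 26.3% of all genes; the exceptions were Mx1 and Isg20.

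Ifit1, which binds viral RNA ends and blocks their translation (mm9 chromosome 19, 34715379 to 34724499), had 39.3 FPKM in WT and 3.56 in STAT6 KO Th2 cells without a vector. With the control vector it had 0.121 FPKM in WT and 3.53 in STAT6 KO, and with the GATA3 vector 0.141 and 4.13. STAT6 KO libraries thus differed little among themselves, and the WT libraries lay above and below them. The intervals that Cufflinks lists, which cover counting error only, run from 0.0446 to 0.198 FPKM for the control vector WT library and from 38.0 to 40.7 for no-vector WT, so the WT values are apart by far more than counting error.

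Isg15, a ubiquitin-like protein that is joined to viral and host proteins (chromosome 4, 155573533 to 155574927), followed the same order. It had 59.3 FPKM in WT and 6.76 in STAT6 KO without a vector, 1.95 and 5.60 with the control vector and 4.51 and 11.8 with the GATA3 vector. Usp18, the protease that removes ISG15 and dampens the type I receptor (chromosome 6, 121195924 to 121220935), had 9.32 and 0.823 FPKM, then 0.227 and 2.27, then 0.402 and 2.37. For these genes WT was above STAT6 KO in the no-vector pair and below it in each vector pair.

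Rtp4, an interferon-induced gene of less defined antiviral function (chromosome 16, 23610005 to 23614308), had 35.3 FPKM in WT and 11.4 in STAT6 KO without a vector, 0.0866 and 8.12 with the control vector and 0.209 and 7.75 with the GATA3 vector. Its differences of 3.07 and 2.86 in the vector cultures were exceeded among the 36 genes by Cxcl10 alone. Zbp1, a sensor of Z-form nucleic acid (chromosome 2, 173032114 to 173044423), had 132 and 46.8, then 14.1 and 41.3, then 12.6 and 48.7 FPKM. The RNA sensor MDA5, encoded by Ifih1, had 30.0 and 10.5, then 5.67 and 19.6, then 6.61 and 16.9 FPKM.

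In all, 9 of the 36 genes were at least 2-fold lower without a vector and at least 2-fold higher in both vector cultures: Ifih1, Zbp1, Ifit1, Ifit3, Oasl2, Isg15, Usp18, Xaf1 and Rtp4. Of all 11121 genes 19 met this rule (0.171%), and 0 met its reverse (0%), higher without a vector and lower in both vector cultures. With a pseudocount of 0.1 in place of 1, 14 of the 36 met it. The share of all genes under that pseudocount was not computed. The other genes of the 19 were Irf7, Stat2, Ifi27l2a, Lgals3bp, Slfn8 and Trim30a, of the pathway lists described below, and 1810009J06Rik, Gm2663, Id3 and Il1r2, named after their values were seen. Just outside the rule lay Eif2ak2, encoding the kinase PKR (-1.68, 0.99 and 0.98), Oas2 (-2.00, 0.93 and 1.26), Oas3 (-2.08, 0.91 and 1.27), Cmpk2 (-1.12, 0.96 and 1.30) and Ddx58, encoding RIG-I (-0.83, 1.27 and 1.40).

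**Figure D2:**
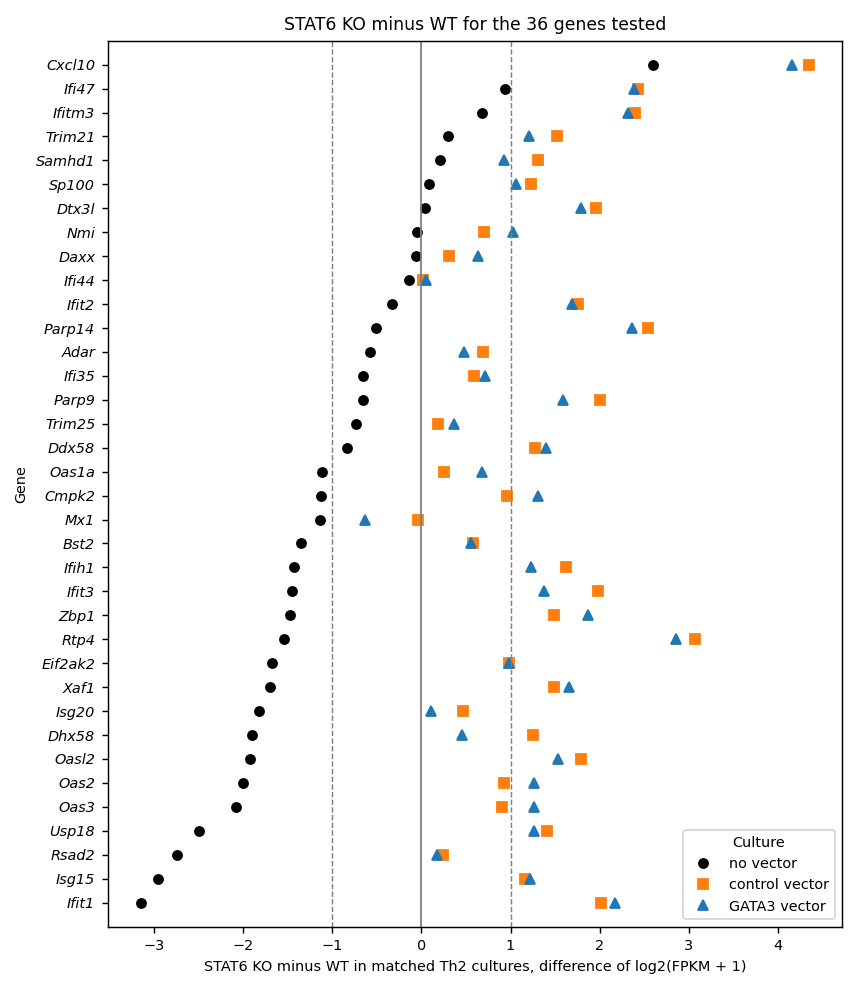
STAT6 KO minus WT (x axis, difference of log2(FPKM + 1)) for each of the 36 genes tested (y axis), 1 library against 1 in the no-vector (circles), control vector (squares) and GATA3 vector (triangles) cultures; dashed lines mark 2-fold. For every gene the circle lies left of the square and the triangle, and Cxcl10 is the gene past 2-fold to the right in all 3 cultures.

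By role, the 4 sensors had median differences of -1.46, 1.38 and 1.32 in the no-vector, control vector and GATA3 vector cultures. The 10 tested effectors on RNA or translation, mainly the Ifit and Oas families, had -1.75, 0.959 and 1.26. Within these families Ifit2 kept nearly equal levels without a vector (6.92 FPKM in WT and 5.31 in STAT6 KO) but was 1.59 against 7.77 and 1.30 against 6.43 FPKM with a vector. Ifit3 went from 9.25 against 2.76 to 0.0835 against 3.28 and 0.0651 against 1.76 FPKM. Reads of neighbouring family members with similar sequence (Ifit, Oas, Oasl, Ifitm) can be split between genes by the counting, so levels of single members are uncertain.

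The 6 effectors on virus entry, replication or release had medians of -1.13, 0.769 and 0.737. Rsad2, the radical enzyme viperin, had 6.94 FPKM in no-vector WT Th2 and 0.0247 to 0.213 in the other 5 Th2 libraries, so that its vector differences (0.24 and 0.17) lie among very low values. Mx1 was lower in STAT6 KO without a vector (1.85 against 0.296 FPKM) and with the GATA3 vector (0.895 against 0.222). With the control vector its levels were very low, 0.223 FPKM in WT and 0.194 in STAT6 KO. Their Cufflinks intervals overlapped there (0.115 to 0.330 and 0.0983 to 0.290). Samhd1, which depletes deoxynucleotides, was high throughout, at 163 against 188, 109 against 271 and 145 against 275 FPKM. The group thus holds Mx1, lower in STAT6 KO without a vector and with the GATA3 vector, and Samhd1, higher in all 3 pairs.

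The 7 genes of ISG15, ubiquitin and ADP-ribose transfer had medians of -0.661, 1.52 and 1.26. Parp14, an ADP-ribosyltransferase, had 33.6 against 23.3, 8.28 against 53.2 and 7.24 against 41.4 FPKM. Parp9 and Dtx3l, whose products form a complex and whose loci overlap on chromosome 16, so that reads of the overlap cannot be told apart without strand, were 2.00 and 1.96 higher with the control vector on the log2 scale and -0.66 and 0.04 apart without a vector. The 5 adaptor, nuclear body and apoptosis factors had medians of -0.0641, 0.705 and 1.03, and Daxx, a histone chaperone, stayed within 11.4 to 19.5 FPKM in the 6 Th2 libraries. Ifi47, a GTPase induced by interferon-gamma, was higher in STAT6 KO in each pair: 182 against 349, 40.7 against 224 and 36.4 against 194 FPKM.

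Cxcl10, the chemokine that recruits CXCR3-bearing cells (chromosome 5, 92775665 to 92777915), was the 1 gene of the 36 that was at least 2-fold higher in STAT6 KO in all 3 cultures, against 0.944% of all genes. It had 5.32 FPKM in WT and 37.4 in STAT6 KO without a vector, 0.730 and 34.3 with the control vector and 0.706 and 29.4 with the GATA3 vector. All 3 STAT6 KO values were above all 3 WT values, as they also were for Dtx3l, Ifi47 and Samhd1. The share of all genes with this separation was not computed. No gene of the 36 (0) was at least 2-fold lower in all 3, against 0.629%.

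The interferon-stimulated response element core and the gamma-activated site were searched in the 250 bases before the start of each gene, since many of these genes differed together between the Th2 libraries. RefSeq promoters (GRCm38.p6) were given for 30 of the 38 genes; Dhx58, Mx1, Oas2, Parp14, Parp9, Rtp4, Usp18 and Zbp1 were not matched. The core, GAAANNGAAA on either strand, was found in 8 of the 30 genes (26.7%), against 936 of 27025 genes of the table (3.46%). These were Bst2, Cxcl10, Ifit1, Ifit3, Isg15, Oas1a, Oas3 and Rsad2. The gamma-activated site, TTCNNNGAA, was found in 6 (20%), against 8.13%; Bst2 and Oas1a held both motifs. Windows of the 4 genes that differed at least 2-fold between STAT6 KO and WT in all 3 cultures, in either direction, and hold the core are shown to place it relative to the start; they read 5' to 3' on the gene's strand and end at the base before the start, with the core in capitals. They lie at chr5:92348890-92349139 (minus strand), chr19:34583279-34583528 (plus), chr19:34640639-34640888 (plus) and chr4:156200819-156201068 (minus). Of the other such genes with a window, Ifih1, Oasl2 and Xaf1 did not hold these letters.
Cxcl10: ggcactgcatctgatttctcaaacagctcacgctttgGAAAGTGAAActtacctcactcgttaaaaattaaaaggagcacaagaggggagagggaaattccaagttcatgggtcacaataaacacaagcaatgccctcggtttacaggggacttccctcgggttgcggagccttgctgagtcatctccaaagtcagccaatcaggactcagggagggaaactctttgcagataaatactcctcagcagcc
Ifit3: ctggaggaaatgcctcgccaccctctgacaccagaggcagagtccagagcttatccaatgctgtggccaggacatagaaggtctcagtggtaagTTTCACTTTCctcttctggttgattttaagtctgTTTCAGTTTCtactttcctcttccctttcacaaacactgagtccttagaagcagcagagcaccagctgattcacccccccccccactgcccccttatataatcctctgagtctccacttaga
Ifit1: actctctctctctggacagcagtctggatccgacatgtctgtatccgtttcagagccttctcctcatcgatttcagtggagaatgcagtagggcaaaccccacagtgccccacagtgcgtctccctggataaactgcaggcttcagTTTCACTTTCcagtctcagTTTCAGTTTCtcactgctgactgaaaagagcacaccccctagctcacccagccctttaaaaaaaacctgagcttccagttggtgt
Isg15: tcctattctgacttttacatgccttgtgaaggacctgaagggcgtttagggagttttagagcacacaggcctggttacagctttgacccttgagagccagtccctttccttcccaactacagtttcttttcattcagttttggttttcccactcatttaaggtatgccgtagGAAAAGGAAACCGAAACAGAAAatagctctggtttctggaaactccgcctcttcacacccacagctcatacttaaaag

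The cores of Ifit1 begin 104 and 85 bases before the start and those of Ifit3 156 and 122 bases before it, in each case on the opposite strand. Isg15 holds 3 overlapping cores between 78 and 57 bases before the start, and Cxcl10 holds 1 core that begins 213 bases before it. The windows were chosen to hold the core. Cxcl10, higher in STAT6 KO in every culture, and the other 3 genes, lower without a vector and higher with one, share it by selection. A match describes these letters only, not binding.

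In the fit over the 12 libraries, with 1 STAT6 KO term for all cultures, limma called 1 of the 36 genes against 2.78% of all genes tested (adjusted p under 0.05). This was Cxcl10, 3.70 ± 0.36 (SE) higher in STAT6 KO on the log2 scale (adjusted p = 0.00756 by limma, 3 libraries against 3). It was not called without the STAT6 KO control vector library (3.51), with all 14 libraries (3.70) or with interactions of knockout and vector added (3.48). The next estimates were 1.92 for Ifi47 (adjusted p = 0.0968), 1.80 for Ifitm3 (0.141) and 1.47 for Parp14 (0.223), by the same limma fit. The median over the 36 genes was 0.42, 10 had an unadjusted p under 0.05, and the term averages the opposite changes above. The share of all genes at that unadjusted p was not computed. Without the no-vector WT Th2 library the median was 1.10 and 14 genes were called, all higher in STAT6 KO, against 2.31% of all genes called in that fit. With the 8 vector libraries alone, an alternative chosen after seeing the data, 9 were called, against 0.98% of all genes, and the median was 1.17. That fit had 2 residual degrees of freedom.

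A term for the difference between the STAT6 KO change with and without a vector was also added after the data were seen. A like term for lineage was added in the same fit, which left 3 residual degrees of freedom in place of 5. The estimate of the STAT6 KO term was positive for 36 of 36 genes, with a median of 2.15 (0.17 to 5.24) against 0.00 over all genes. By limma, 2 of the 36 had an adjusted p under 0.05, against 0.0629% of all genes: Usp18 (3.84 ± 0.20 SE, adjusted p = 0.0287) and Rsad2 (2.95 ± 0.14, adjusted p = 0.0260). At an unadjusted p under 0.05 there were 30 of 36, against 11.3% of all genes. The no-vector WT Th2 group is 1 library and enters every such estimate, so a change of that condition and a difference of that library cannot be told apart.

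**Figure D3:**
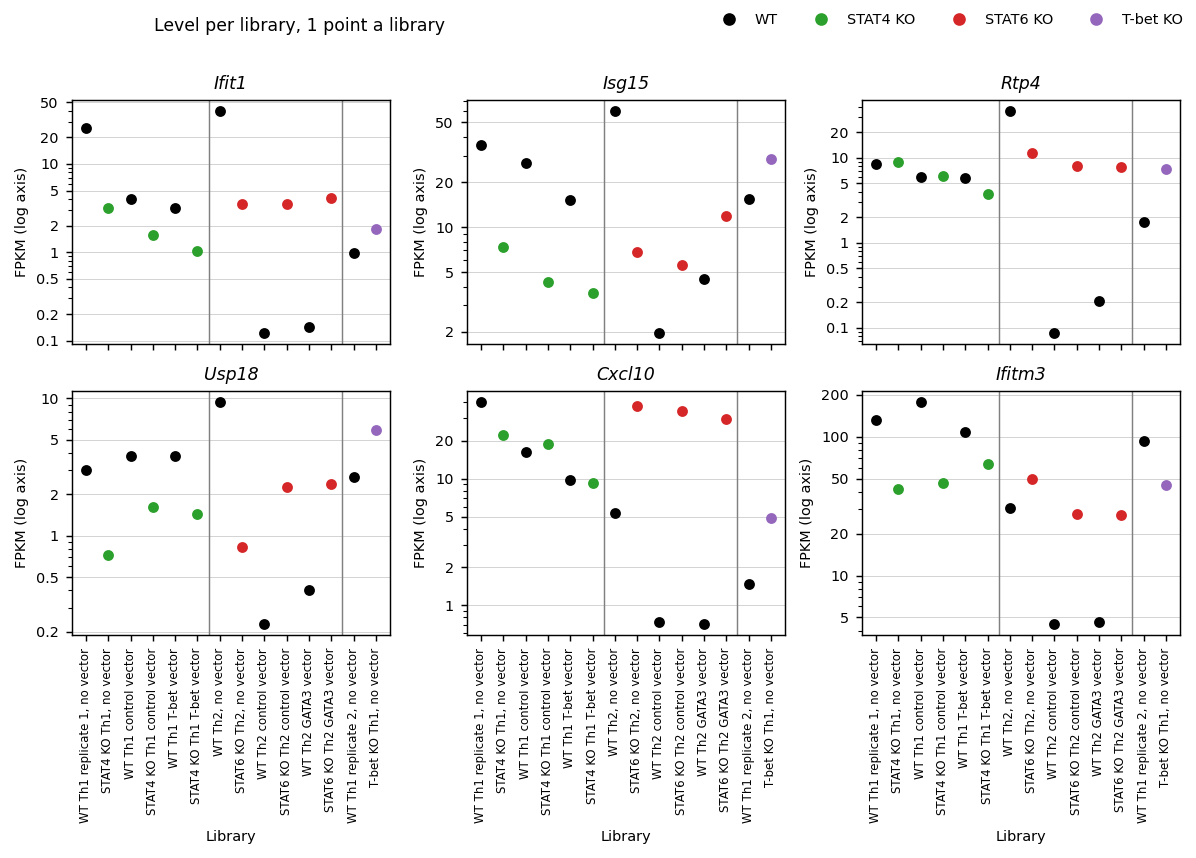
FPKM (y axis, log scale) of 6 genes in each of the 14 libraries (x axis), 1 point a library coloured by genotype; vertical lines part Th1, Th2 and the 2 libraries that stood apart. In Th2 cells the STAT6 KO points (red) lie close together, from 3.53 to 4.13 FPKM for Ifit1, while the WT points (black) lie at 39.3 FPKM without and 0.121 and 0.141 FPKM with a vector.

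The summed level of the 12 myeloid markers was higher in WT than in STAT6 KO Th2 cells, through few of the markers. The 12 markers summed to 10.9, 7.44 and 8.35 FPKM in the WT Th2 libraries without a vector, with the control vector and with the GATA3 vector, and to 0.475, 0.849 and 2.54 in the STAT6 KO ones. In no-vector WT Th2 the macrophage and eosinophil gene Emr1 made up most of the sum (8.42 FPKM, at most 0.505 in the other 13 libraries), while Lyz2, Csf1r, Fcgr1, C1qa, C1qb and Clec9a were listed at 0. In WT Th2 with the control vector Batf3, which T cells also express, led with 5.66 FPKM. With the GATA3 vector Itgax (3.335 FPKM), Batf3 (2.68) and Xcr1 (1.66) led in WT. Lyz2, Csf1r, Cd14, Fcgr1, C1qa, C1qb, Clec9a and Flt3 were at most 0.214 FPKM in every Th2 library of either genotype. Different markers thus led the sum in the WT Th2 libraries, Emr1 where the 36 genes were high and Batf3 or Itgax where they were low. The part of these markers in the result was not tested. The 5 genes listed for plasmacytoid dendritic cells summed to 11.3, 37.0 and 23.1 FPKM in WT and 121, 237 and 190 in STAT6 KO Th2 cells. Nearly all of this was Irf8, which T cells also express (10.0 and 119, 32.6 and 233, 20.8 and 187 FPKM in the 3 pairs), while the defining marker Siglech was at most 0.0270 FPKM in any library; the part of these genes in the result was not tested.

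WT Th2 cells with a vector had lower levels of these genes than those without. Control vector minus no vector had a median of -2.25 over the 36 genes in WT Th2, where 31 were at least 2-fold lower, against 7.72% of all genes. The median of all genes was 0.12 in this pair and 0.25, 0.13 and 0.14 in those of WT Th1, STAT4 KO Th1 and STAT6 KO Th2 cells. The differences ran to -5.17 for Ifit1, -5.06 for Rtp4 and -4.35 for Isg15. In STAT6 KO Th2 cells the median was 0.09 and 1 gene, Nmi, was at least 2-fold lower (35.0 to 15.8 FPKM), against 5.22% of all genes, while Oasl2 (0.492 to 2.59 FPKM) and Parp14 (23.3 to 53.2) were at least 2-fold higher. In WT Th1 cells, with replicate 1 as the no-vector library, the median was 0.05 and 6 genes were lower, against 4.76%; Ifit1 went from 25.3 to 3.97 FPKM, Ifit3 from 14.2 to 4.00 and Cxcl10 from 40.0 to 16.1, and the others were Ddx58, Ifi44 and Sp100. In STAT4 KO Th1 cells the median was -0.14 and 1 gene, Ddx58, was lower (14.7 to 6.71 FPKM), against 4.97%.

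**Figure D4:**
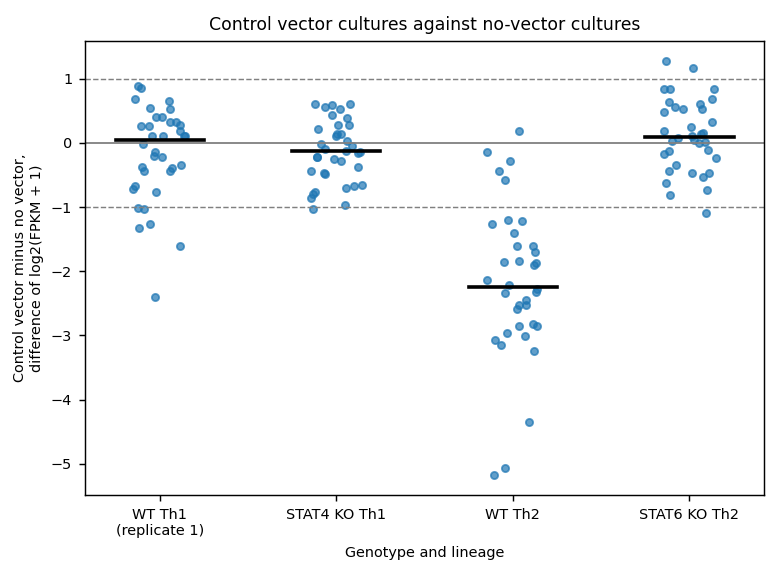
Control vector minus no vector (y axis, difference of log2(FPKM + 1)) for the 36 genes (points, spread sideways at random for visibility) in 4 pairs of libraries (x axis); bars mark medians and dashed lines 2-fold. The WT Th2 points centre on -2.25, and those of the other pairs on 0.05, -0.14 and 0.09.

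In the fit over the 12 libraries, limma called 4 of the 36 genes between vector and no-vector cultures, a share below that of all genes (50.9%). Sp100 (-1.09 ± 0.19 SE, adjusted p = 0.00386) and Daxx (0.50 ± 0.13, 0.0159), constituents of PML nuclear bodies, were called in opposite directions by limma. Nmi, an adaptor that binds STAT proteins (-1.03 ± 0.24, adjusted p = 0.0125), and Ddx58 (-1.41 ± 0.40, adjusted p = 0.0248) were lower in the same limma fit. Nmi had 22.7 FPKM in WT Th1, 26.9 in STAT4 KO Th1, 36.4 in WT Th2 and 35.0 in STAT6 KO Th2 without a vector, and 6.88 to 17.3 in the 8 vector libraries; Sp100 had 72.5, 45.4, 47.5 and 50.6 against 15.0 to 41.1. Neither range overlapped, whereas those of Ddx58 (13.1, 14.7, 30.0 and 16.4 against 3.30 to 14.4) did. The share of all genes whose ranges did not overlap was not computed. Daxx, at 11.2 to 12.2 against 12.2 to 21.3 FPKM, was not called after upper-quartile scaling (0.32) or quantile normalization (0.30), nor without the no-vector STAT6 KO (0.44), the WT Th1 control vector (0.48) or the STAT4 KO control vector library (0.46). Ddx58 was not called with all 14 libraries (-1.17), without either of the no-vector STAT4 KO and WT Th1 control vector libraries (-1.44 each), or without WT (-1.12) or STAT6 KO Th2 with the control vector (-1.48), and Nmi was not called with all 14 (-0.83).

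Between the lineages, the direction again differed between the cultures. This comparison shares the WT Th2 libraries with the STAT6 KO and vector comparisons above, so they are not independent of each other. With the control vector, Th1 cultures had anti-IL-4 and Th2 cultures anti-IFNG, and restimulation is not stated for the latter. Lineage and these conditions cannot be told apart in that pair. WT Th2 minus WT Th1 had a median of 0.75 over the 36 genes without a vector, 27 of them positive, and of -1.14 with the control vector, where all 36 were negative. In 10 genes (Bst2, Dhx58, Eif2ak2, Ifi47, Oas3, Parp9, Rtp4, Usp18, Xaf1 and Zbp1) WT Th2 was at least 2-fold higher without and at least 2-fold lower with the vector, against 0.252% of all genes. No gene of the 36 (0) was at least 2-fold higher in Th2 in both cultures, against 1.12% of all genes. Cxcl10 and Ifitm3 were at least 2-fold lower in both, against 2.41%.

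Ifitm3, a membrane protein that blocks virus entry (chromosome 7, 148195489 to 148196643), had 133, 177 and 109 FPKM in the WT Th1 libraries without a vector, with the control and with the T-bet vector, and 30.5, 4.47 and 4.65 in the WT Th2 ones. Cxcl10 had 40.0, 16.1 and 9.81 against 5.32, 0.730 and 0.706 FPKM. For both genes every WT Th1 library of the 12 was above every WT Th2 library. By limma these 2 of 36 genes were called lower in Th2 cells, against 6.81% of all genes called: Cxcl10 by -3.08 ± 0.40 (SE, adjusted p = 0.0122) and Ifitm3 by -3.52 ± 0.64 (adjusted p = 0.0281). The next estimates were those of Isg15 (-1.53) and Ifit3 (-1.53), which were not called (adjusted p = 0.357 and 0.237 by limma). Cxcl10 was not called without the WT Th1 (-3.22) or WT Th2 (-2.72) control vector library or with all 14 libraries (-2.05), and WT Th1 replicate 2 had 1.48 FPKM of it. Ifitm3 kept its call without no-vector WT Th2 or no-vector STAT4 KO Th1 and lost it without any other library of the 12 (-3.87 to -2.80). Both calls were lost with interactions of knockout and vector added (-3.00 for Cxcl10 and -3.56 for Ifitm3), and that of Ifitm3 also without a filter (-3.52) and with the 8 vector libraries alone (-4.72). Without no-vector WT Th2, 15 genes were called, all lower in Th2, against 3.91% of all genes. The difference between the lineage changes with and without a vector, added after the data were seen, had 2 of the 36 at an adjusted p under 0.05, against 0.0629% of all genes: Usp18 (-3.47 ± 0.19 SE, adjusted p = 0.0373) and Rsad2 (-2.36 ± 0.14, adjusted p = 0.0421), by limma.

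Loss of STAT4 in Th1 cells went with lower levels of a few genes. Of the 36, limma called 0, against 3.11% of all genes, and 6 had an unadjusted p under 0.05. The share of all genes at that unadjusted p was not computed. STAT4 KO minus WT had medians of -0.14 without a vector, -0.30 with the control vector and -0.53 with the T-bet vector. Isg15 had 35.5, 26.7 and 15.3 FPKM in the WT Th1 libraries of these cultures and 7.41, 4.26 and 3.65 in STAT4 KO, and Ifit3 had 14.2, 4.00 and 3.93 against 1.83, 1.44 and 0.797. These 2 genes were at least 2-fold lower in all 3 cultures, against 1.16% of all genes. The count was 7 with a pseudocount of 0.1 and 1 after upper-quartile scaling. The shares of all genes under these settings were not computed. No gene of the 36 (0) was at least 2-fold higher in all 3, against 0.126%. Ifit1, at 25.3, 3.97 and 3.18 against 3.18, 1.55 and 1.05 FPKM, lay just outside with a log2 difference of -0.96 with the control vector.

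Over the 6 Th1 libraries, all STAT4 KO values were below all WT values for 11 of the 36 genes, against 8.55% of all genes. Besides Isg15 and Ifit3 these were Ifit2, Oasl2, Eif2ak2, Usp18, Zbp1, Dhx58, Ifitm3, Mx1 and Ifi44. WT Th1 replicate 2 is not among these libraries. It was below the highest STAT4 KO value for Ifit2 (1.14 against 4.92 FPKM), Ifit3 (1.45 against 1.83), Eif2ak2 (2.325 against 5.45) and Oasl2 (1.43 against 1.71). For the others it was above every STAT4 KO value. Ifitm3 had 42.0, 46.5 and 63.8 FPKM in STAT4 KO, below the 109 to 177 FPKM of WT. The fitted STAT4 KO estimates were -2.11 ± 0.86 (SE) for Isg15 (adjusted p = 0.199), -1.64 ± 0.64 for Ifit3 (0.182), -1.55 ± 1.03 for Ifit1 (0.406) and -1.43 ± 0.57 for Ifitm3 (0.187), by limma. Without the no-vector WT Th2 library, which leaves these estimates as they are and changes the spread, 4 genes were called lower (Isg15, Mx1, Usp18 and Zbp1), against 4.81% of all genes. With WT Th1 replicate 2 in place of replicate 1, 0 genes were at least 2-fold lower in all 3 cultures, since it had 1.45 FPKM of Ifit3 and 15.4 of Isg15; Ifit1 was 0.988 FPKM there. The STAT6 KO change minus the STAT4 KO change was called for 1 of the 36, Cxcl10 (3.93 ± 0.51 SE, adjusted p = 0.0217 by limma), against 2.48% of all genes, and for 0 with all 14 libraries (Cxcl10 3.11).

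With ectopic T-bet or GATA3 no change of these genes was called. For the T-bet vector against the control vector in Th1 cells limma called 0 of the 36, against 0.018% of all genes. Of the 36, 1 had an unadjusted p under 0.05. Shares of all genes at that unadjusted p were not computed for the T-bet and GATA3 vector terms. No gene (0) moved past 2-fold in the same direction in WT and STAT4 KO, against 0.198%. The medians were -0.11 in WT and -0.175 in STAT4 KO cells, and the genes at least 2-fold lower were Samhd1 (194 to 83.3 FPKM) and Dtx3l (36.3 to 17.4) in STAT4 KO. Isg15 had 4.26 and 3.65 FPKM in STAT4 KO with the control and T-bet vectors, below the 15.3 to 26.7 of WT. For the GATA3 vector in Th2 cells limma called 0 of the 36, against 2.84% of all genes, and 0 had an unadjusted p under 0.05; 0 moved past 2-fold in both genotypes, against 2.29%. The medians were 0.07 in WT and 0.03 in STAT6 KO. Cxcl10 was 34.3 FPKM with the control and 29.4 with the GATA3 vector in STAT6 KO. A different change with the vector in knockout and WT cells was called for 0 of the 36 for GATA3 with STAT6 KO, against 0.117% of all genes, with 0 at an unadjusted p under 0.05, and for 0 for T-bet with STAT4 KO, against 0.018%, also with 0 at an unadjusted p under 0.05.

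T-bet KO Th1 cells were compared with WT Th1 replicate 2, the WT library they resemble, 1 library against 1 and so without a test. The median difference was 0.52, and 7 genes were at least 2-fold higher in T-bet KO, against 1.81% of all genes. Isg20, an exonuclease for single-stranded RNA, had 233 against 96.6 FPKM. Oas3, an RNA-activated synthetase, had 21.7 against 7.03, Rtp4 7.32 against 1.77, Ifih1 17.6 against 7.88 and Cxcl10 4.89 against 1.48 FPKM; Oas1a (2.78 against 0.259) and Ifi44 (2.88 against 0.344) were the others. Ifitm3 was the 1 gene at least 2-fold lower (45.1 against 93.4 FPKM), against 1.88%. Against WT Th1 replicate 1 instead, 5 genes were at least 2-fold higher (14.6% of all genes) and 8 lower (13.8%). Isg20, Oas1a and Oas3 were at least 2-fold higher than both WT libraries (1.2% of all genes) and Ifitm3 lower than both (0.755%), whereas Cxcl10 was higher than replicate 2 and lower than replicate 1 (40.0 FPKM). The 12 myeloid markers summed to 85.3 FPKM in T-bet KO and 19.1 in WT Th1 replicate 2, nearly all of it Batf3 (85.0 and 17.6 FPKM); their part in these differences was not tested.

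The genes upstream of this group were described from a list of 25 ligands, receptors, signalling factors and inhibitors, of which 18 passed the filter. Ifng, the ligand of the type II pathway, had 8326 FPKM in no-vector WT Th1, 4074 and 5199 with the control and T-bet vectors, and 60.3, 22.6 and 1739 in STAT4 KO. In Th2 cells it had 14.1 FPKM in WT and 136 in STAT6 KO without a vector, 2.40 and 37.3 with the control vector and 0.945 and 13.9 with the GATA3 vector. Ifng was thus higher in STAT6 KO in every culture, as Cxcl10 was, and the fitted change was 3.20 ± 1.06 (SE, adjusted p = 0.158 by limma). The type I genes Ifnb1, Ifna2, Ifna4 and Ifnk and the type III gene Il28b did not pass the filter. Ifnb1 was listed at 1.38 FPKM in WT Th1 replicate 1 and 0.833 in no-vector WT Th2, at 0.131 and 0.0311 in the no-vector STAT4 KO and STAT6 KO libraries, at 0.0501 in STAT4 KO with the T-bet vector and at 0 in the other 9. Among the 12 libraries of the fit, no-vector WT Th2 was the highest for 22 of the 36 genes and WT Th1 replicate 1 for 5. The shares of all genes were 11.1% and 11.8%. Ifit1 was highest in these 2 libraries, whereas Rtp4 in WT Th1 replicate 1 (8.56 FPKM) was below no-vector STAT6 KO Th2 (11.4). The part of Ifnb1 in the result was not tested.

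The receptor genes Ifngr1 and Il10rb, the kinase gene Tyk2 and the transcription factor gene Irf1 were called higher in STAT6 KO (4 of 18, 0 lower), by 2.06, 1.28, 0.74 and 2.57 on the log2 scale (adjusted p = 0.0494, 0.0366, 0.0401 and 0.0326 by limma). Irf1 had 62.5 FPKM in WT and 557 in STAT6 KO without a vector, 60.9 and 268 with the control vector and 42.1 and 236 with the GATA3 vector. In the same pairs Stat2 (20.8 and 7.19, 9.09 and 21.6, 9.87 and 27.0 FPKM) and Irf7 (27.4 and 8.55, 2.19 and 11.9, 1.99 and 12.5) were lower in STAT6 KO without a vector and higher with one. Irf9 had 60.5 and 52.9, 22.3 and 44.4, and 29.7 and 40.2 FPKM. Stat2 and Irf7 thus followed the direction of Ifit1, whereas Irf1 was higher in STAT6 KO in all 3 cultures. The shares of all genes called were 2.78% for STAT6 KO, 6.81% for Th2 against Th1 and 3.11% for STAT4 KO. In Th2 against Th1 cells, Ifng, Ifngr1, Il10rb and Tyk2 were called lower (4 of 18, 0 higher; -8.65, -1.99, -1.21 and -0.64 with adjusted p = 0.0144, 0.0472, 0.0382 and 0.0499 by limma), and in STAT4 KO the inhibitor genes Ptpn2 and Socs3 were (2 of 18, 0 higher; -0.59 and -1.79, adjusted p = 0.0380 and 0.0394 by limma).

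Of a further list of 46 interferon-stimulated genes, 38 passed the filter. The counts called below stand beside 2.78% of all genes for STAT6 KO, 6.81% for Th2 against Th1 and 3.11% for STAT4 KO. In STAT6 KO 5 were called higher and 0 lower: Ifi203 (2.79, adjusted p = 0.0207), Ms4a4c (1.88, 0.0187), Ms4a4b (1.84, 0.00267), Ifitm1 (1.42, 0.0328) and Ifi205 (1.14, 0.00237), by limma. Ifi203, of the PYHIN family of DNA-binding proteins, had 14.9 FPKM in WT and 44.4 in STAT6 KO without a vector, 3.83 and 51.2 with the control vector and 1.49 and 25.8 with the GATA3 vector. Like Cxcl10, it was higher in STAT6 KO in all 3 pairs. Ifi27l2a instead had 1384 and 513, 111 and 281, and 54.6 and 154 FPKM. In Th2 against Th1 cells 7 of the 38 were called lower and 0 higher, led by Ifitm1 (-3.88, adjusted p = 0.00240), Ms4a4c (-3.78, 0.00287) and Ifi203 (-2.31, 0.0306) by limma. In STAT4 KO 3 were called lower and 0 higher: Ms4a4c (-2.05, adjusted p = 0.0238), Ifitm1 (-2.03, 0.0186) and Ifi204 (-1.22, 0.0186), by limma.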

How the data were processed

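RNA was measured in 14 libraries by single-read HiSeq sequencing of TruSeq libraries, per the labels' protocols. The deposited tables hold FPKM per gene with an interval for each value, computed by the authors with Cufflinks, per the file headers. TopHat, Cufflinks, SICER and the build mm9 are named for the series per the submitters' processing notes, without versions or an annotation in the sources used here. Read counts are not in these tables, so depth is unknown and no count test was run; the intervals cover counting error only. The ChIP samples are not analysed here.

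The 118 entries with a failed estimate in a library were left out. Genes with 1 FPKM or more in at least 2 of 14 libraries were tested on log2(FPKM + 1) with limma 3.58.1 in R 4.3.3 (eBayes with a trend). The terms were each knockout (STAT4, STAT6), each factor vector (T-bet, GATA3), vector culture and lineage, over 12 libraries with 5 residual degrees of freedom, and a call is an adjusted p (Benjamini-Hochberg, over 11121 genes) under 0.05. The spread is estimated from how far the libraries depart from additive terms. The fitting script was tested on simulated data. Matched cultures were also compared as 1 library against 1, without a test, with 2-fold (a log2 difference of 1) as the mark.

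The 38 genes and the other lists were chosen with earlier results of these data known. Genes are named where called, where past 2-fold in every matched culture, or where among the 4 largest estimates of the STAT6 KO, STAT4 KO and lineage comparisons; other named genes were chosen after their values were seen. Alternatives were another pseudocount (0.1), other filters, upper-quartile and quantile scaling, all 14 libraries, interaction terms, and leaving out each library. Promoters came from RefSeq (GRCm38.p6), a build other than that of the tables, and no coordinates were converted.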

Additional observations from a re-analysis of the deposited data

Results flagged for a closer look

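The STAT6 KO minus WT difference of 9 genes was negative without a vector and positive in both vector cultures. This pattern was seen in the data and then tested on the same libraries with an added limma term, the change with a vector minus that without. Its estimates were 2.86 for Ifih1, 5.24 for Ifit1, 3.13 for Ifit3, 4.15 for Isg15, 3.59 for Oasl2, 4.51 for Rtp4, 3.84 for Usp18, 3.27 for Xaf1 and 3.16 for Zbp1 on the log2 scale. Of these Usp18 passed the threshold (adjusted p = 0.0287 by limma), and for the others the adjusted p ranged from 0.0658 (Isg15 and Rtp4) to 0.280 (Ifit3). Rsad2 also passed (2.95, adjusted p = 0.0260 by limma). The lineage difference, Th2 minus Th1 with a vector minus that without, passed for Usp18 (-3.47, adjusted p = 0.0373) and Rsad2 (-2.36, adjusted p = 0.0421) in the same limma fit. All of these estimates share the no-vector WT Th2 library, which has no replicate.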

How the results depend on the processing

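The STAT6 KO comparison called 0 of the 36 genes with all 14 libraries or with interactions of knockout and vector, 9 with the 8 vector libraries alone and 0 to 14 with each library left out; its median ranged from -0.02 to 1.10 in the last case. Th2 against Th1 called 1 without a filter or with all 14 libraries, 0 with the interactions, 7 with the vector libraries alone and 0 to 15 with each library left out. With each library left out, STAT4 KO called 0 to 4, the GATA3 vector 0 to 1 and vector culture 2 to 11 (2 with all 14 libraries). The STAT6 KO minus STAT4 KO change called 0 with all 14. The count over all genes also moved with each library left out. It was 47 to 454 for STAT6 KO, 146 to 503 for Th2 against Th1, 2 to 535 for STAT4 KO and 4553 to 5866 for vector culture. For STAT6 KO it was 107 with all 14 libraries and 71 with the interactions. Where no share of all genes is given here or above, a count of the 36 cannot be set against the whole fit. With a pseudocount of 0.1, 14 genes were lower without and higher with a vector in STAT6 KO, and 7 were lower in all 3 STAT4 KO cultures, against 1 after upper-quartile scaling and 0 with the WT Th1 replicates exchanged. The same exchange gave 1 gene lower in Th2 in both cultures, 18 higher without and lower with a vector, and 8 lower in T-bet KO. The cause of these differences was not tested. Leaving out a library also leaves fewer samples in the fit. Upper-quartile scaling moved the median of the vector comparison from -0.54 to -0.72. No named gene reversed its sign when called. No paired analysis was possible because the RNA groups compared share at most 1 replicate number, WT Th1 alone having 2 libraries; cultures were matched by their treatment. Without replicates in 12 groups, each pair compares libraries, and genes below 1 FPKM rest on few reads.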
